A study of Mus musculus with 22 samples.

Results

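Lung RNA of the 5 control mice was compared with the reference RNA that shared each array with it. The members were chosen by title: these are the 5 arrays labelled Control among the 22 arrays of the series, and the other 17 held lungs of mice given Mitsui7, a multiwalled carbon nanotube, at 18, 54 or 162 µg. The control mice were female C57BL/6 animals, 8 weeks old when the experiment began. They received the vehicle alone, 0.9% NaCl with 10% bronchoalveolar lavage (BAL) fluid, by a single instillation into the trachea, and were killed 24 h later. Each array held RNA from the right lung of 1 mouse, labelled with the red dye Cy5, and Universal Mouse Reference RNA, labelled with the green dye Cy3. The labels describe that reference only as RNA from 11 mouse cell lines, and it is a single pool common to all arrays. Values are therefore log2 ratios of lung to reference measured at the same probe, where 1 unit is a 2-fold difference and values above 0 mean more signal from lung. The dyes were not swapped, so a dye preference of a single probe and the spread of the reference itself could not be separated from the ratio.

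The lung is built around alveoli, in which flat type I cells form the surface for gas exchange and cuboidal type II cells make surfactant, the lipid and protein film that keeps the air spaces from collapsing. A dense capillary bed lies against this epithelium, and the airways are lined by secretory club cells and by ciliated cells. Most cells of the adult lung divide rarely, whereas cell lines grow continuously in culture. A pool of cell-line RNA gives every array the same counterpart, and it was used in the study as a common denominator rather than as a subject of comparison.

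Ratios of the 5 lungs to the common reference were closely correlated. Differences from the reference that all lungs share raise such a correlation, and some gene lists varied widely between lungs, as described below. The correlation of log2 ratios between pairs of control arrays, across probes and thus not over independent replicates, lay between 0.89 and 0.96. Signals exceeded the negative-control limit for 70.5% to 77.7% of the 55681 probes in the lung channel and for 65.9% to 79.8% in the reference channel. A signal counted as above this limit when it lay more than 3 SD over the mean of the negative-control spots, trimmed by 5%, and 40558 probes did so in at least 1 channel on at least 4 of 5 arrays. These probes represented 16853 of the 20169 named genes, each read from its brightest probe. Each control array lay on a slide of its own, so slide and mouse cannot be told apart.

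A probe or gene was called when its mean log2 ratio differed from 0 at an adjusted p of at most 0.05 (limma, Benjamini-Hochberg over all 55681 probes) and by at least 1.5-fold. By this rule 8174 probes (20.2% of those tested) were higher in lung than in the reference and 6641 probes (16.4%) were lower. At 4-fold or more, 1958 probes (4.83%) were higher and 947 (2.33%) were lower. By gene, 4682 (27.8%) were higher and 3381 (20.1%) were lower, and at 4-fold or more 1444 genes (8.57%) were higher and 534 (3.17%) were lower. The median log2 ratio over all genes tested was 0.07, the middle 50% of genes lay between -0.43 and 0.70, and the SD over the 5 lungs had a median of 0.23 per gene. The split between higher and lower depended on the scaling: 55.2% of the called probes were higher with the intensity-dependent (loess) scaling used here, 34.8% with plain median centring, 92.2% without any scaling, and 47.4% with the scanner software's own ratio. At 4-fold or more the share was 67.4% with loess, 44% with median centring and 88.8% without scaling. Median centring moved the median of all probes by -0.13 and the absence of scaling moved it by 1.00.

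The genes with the highest ratios among those well above background in both channels, with a usable spot on all 5 arrays, came from epithelium, vessels and connective tissue. Epas1, which encodes a hypoxia-inducible transcription factor of endothelium, had log2 ratios of 8.43, 8.84, 8.94, 8.23 and 8.21 in controls 1 to 5. Scgb1a1, the secretoglobin that club cells release in bulk, stood at 8.43, 8.60, 8.58, 8.90 and 7.93. Ptprb, a receptor phosphatase of endothelium, stood at 7.65, 8.82, 8.65, 8.36 and 8.41. All 5 lungs were far above the reference for each of these genes, with means of 8.53 ± 0.34, 8.49 ± 0.36 and 8.38 ± 0.45 (SD, n = 5). They correspond to 370-fold, 359-fold and 333-fold more signal from lung, with limma adjusted p = 1e-09, 1.01e-09 and 1.63e-09.

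Sftpc, which encodes the surfactant protein made only by type II cells, gave 7.63, 7.61, 7.40, 7.82 and 7.19, a mean of 7.53 ± 0.24 (SD, n = 5) or 185-fold. The other genes of the highest 10 with usable spots on all 5 arrays were Sec14l3 at 8.23 ± 0.32, Hc (complement component 5) at 7.96 ± 0.45, Limch1 at 7.84 ± 0.62, the cytochrome P450 gene Cyp4b1 at 7.65 ± 0.48, the matrix glycoprotein gene Sparcl1 at 7.64 ± 0.23 and the complement inhibitor gene Serping1 at 7.13 ± 0.24 (SD, n = 5). Every one of these genes was above 0 on all 5 control arrays. Across the 1444 genes called at least 4-fold higher, 1391 were also above 0 on all 17 arrays of treated lungs. Of the 534 called at least 4-fold lower, 517 were below 0 on all of these. Treated lungs share the tissue and the reference with the controls, so these counts are not a separate test.

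**Figure D1:**
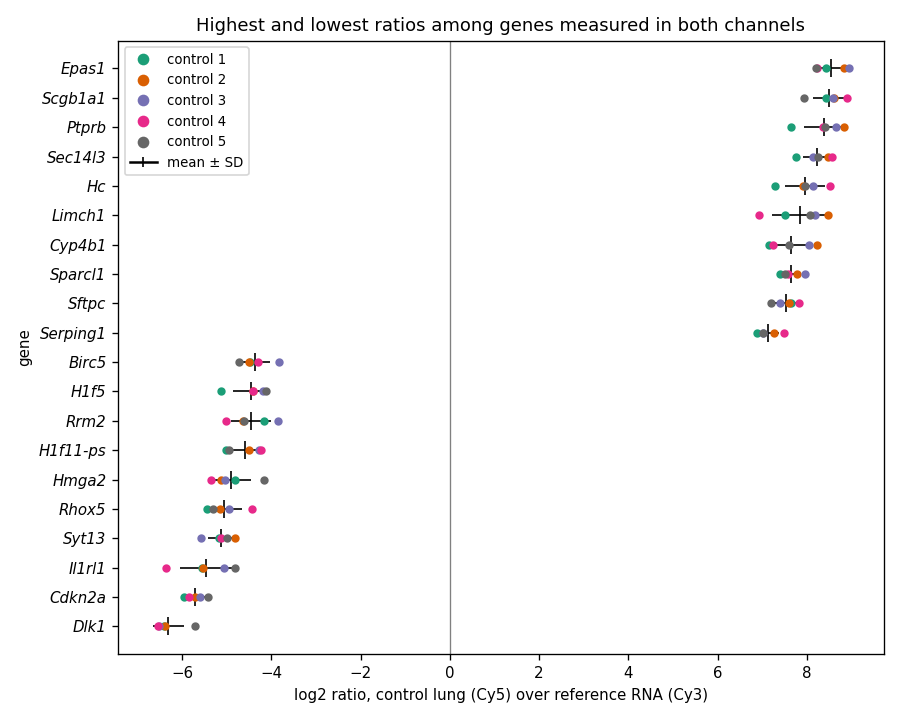
Log2 ratios (x axis) on the 5 control arrays for the 10 highest and 10 lowest genes (y axis) among those well above background in both channels and with a usable spot on every array; coloured points are single lungs and black bars are the mean ± SD. The highest genes lie between 6.88 and 8.94 and the lowest between -6.53 and -3.82, with no lung of either set on the other side of 0.

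Among the genes outside that set, 355 were well above background in every lung but in no reference channel, so that only a lower bound of the ratio can be given. The bound compares the bright channel with the dim probe's own signal or, where that was higher, with the lowest signal of any probe well above background, after both channels were set on a common scale. Each bound, here and below, applies to the mean log2 ratio over the control arrays, and a single lung can fall short of it. Hpgd, which encodes the enzyme that inactivates prostaglandins, was on average at least 150-fold higher in lung (limma adjusted p = 8.66e-08). The measured log2 ratios of Hpgd were 7.48, 8.09, 8.12, 5.79 and 7.04, lowest in control 4. Kit, a receptor tyrosine kinase, was on average at least 59.6-fold higher (limma adjusted p = 1.85e-07). Il18r1, a subunit of the interleukin 18 receptor, was at least 50.9-fold higher on average (limma adjusted p = 1.99e-08). Adrb1, the beta-1 adrenergic receptor, was at least 30.2-fold higher on average (limma adjusted p = 6.52e-08). Control 4 was again the lowest lung for Kit, Il18r1 and Adrb1, at log2 ratios of 4.58, 4.92 and 4.18. In the other direction, 159 genes were well above background in every reference channel and in no lung. Ifi202b, an interferon-inducible gene, was at least 96.7-fold lower in lung, the homeobox gene Hoxc6 at least 50.0-fold lower, and Ereg, which encodes the growth factor epiregulin, at least 15.1-fold lower (limma adjusted p = 6.67e-09, 8.99e-09 and 2.89e-08).

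Genes of the alveolar epithelium were higher in lung throughout. All 20 tested type II genes were called higher and 19 of them by at least 4-fold, with a list median of 4.46 against 0.07 over all genes. The highest was Hc, given above, and among the surfactant protein genes Sftpd stood at 7.87 ± 0.13 (SD, n = 4, since a spot of control 5 was an outlier) and Sftpb at 6.74 ± 0.31 (SD, n = 5). The lowest type II value was that of Acot7, an acyl-CoA thioesterase, at 0.99 ± 0.13, and this gene stood at -0.03 under median centring. All 19 tested type I genes were called higher, 15 of them by at least 4-fold, with a median of 3.87. Akap5, a scaffold of protein kinase A, stood at 6.95 ± 0.40, the chloride channel gene Clic5 at 6.60 ± 0.33 and Ager, the receptor for advanced glycation end products that type I cells carry in abundance, at 5.26 ± 0.30 (SD, n = 5). Scnn1g, an epithelial sodium channel subunit, did not pass the filter on dim signals.

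Airway genes showed the same excess with more spread. All 20 secretory genes of club and goblet cells were called higher, 17 by at least 4-fold, with a median of 5.04, and Scgb3a2 and Cyp2f2, both typical of club cells, stood at 7.42 ± 0.30 and 7.10 ± 0.60 (SD, n = 5). Reference signal of Scgb3a2 was well above background on 4 arrays. Among genes of the cilium 21 of 22 were called higher, 17 by at least 4-fold, with a median of 2.86. Fam183b stood at 5.65 ± 0.06, the tubulin-binding protein gene Tppp3 at 5.30 ± 0.32 and the dynein light chain gene Dynlrb2 at 5.15 ± 0.40. Rfx3, a transcription factor of ciliogenesis, was the gene that was not called, at -0.18 ± 0.15 (SD, n = 5). Airway basal cell genes did not stand out: 1 of 10 was higher, 2 were lower, and the median was 0.39.

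Of 30 transcription factor genes that pattern the lung, 27 were called higher and 1 lower, with a median of 2.92. Foxa2, a forkhead factor of endoderm, gave 5.46, 5.34, 5.69, 5.06 and 5.53 in the 5 lungs, with a mean of 5.42 ± 0.24 (SD, n = 5). Nkx2-1, the homeobox factor required for lung formation, gave 4.66, 4.84, 5.05, 4.14 and 4.66, with a mean of 4.67 ± 0.34, and its reference signal was well above background on 4 of the 5 arrays. Among the factors of lung mesenchyme, Tbx4 stood at 5.04 ± 0.59 with reference signal above background on 2 arrays, Tbx5 at 3.62 ± 0.42 and Foxf1 at 1.40 ± 0.83 (SD, n = 5). The lower gene was Sox9, a factor of growing epithelial tips and of cartilage, at -2.17 ± 0.36, with lung signal well above background on 1 array. Of 17 genes for water and ion transport 15 were called higher, with a median of 3.21, led by the sodium channel subunit Scnn1a at 5.22 ± 0.20, the water channel Aqp5 at 5.01 ± 0.17 and the phosphate transporter Slc34a2 at 4.65 ± 0.41 (SD, n = 5).

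Endothelial genes were higher almost throughout. Of 35 genes of blood vessel endothelium, 34 were called higher and 33 by at least 4-fold, with a median of 4.40. Besides Epas1, Ptprb and Cyp4b1, Cdh5, the cadherin of endothelial junctions, stood at 6.74 ± 0.66 (SD, n = 5). Kdr, the main receptor for vascular endothelial growth factor, was not called: its values were 0.55, -0.09, 0.32, -0.11 and 0.40, with a mean of 0.22 ± 0.30 (limma adjusted p = 0.16), and 1 of its 2 probes was called higher. Car4, an anhydrase of alveolar capillaries, had a mean of 0.63 ± 0.51, and its ratio turned to -0.23 under median centring. Lymphatic genes were higher for 5 of 7, led by Lyve1 at 5.83 ± 0.77 (SD, n = 5; reference signal above background on 2 arrays). When signal was required in both channels, 2 of the lymphatic genes were higher. Genes for vessel tone and clotting were higher for 14 of 22 and lower for 4, with Vwf, the carrier of factor VIII, at 5.56 ± 0.29 and thrombomodulin, Thbd, at 4.82 ± 0.27, against Procr, the endothelial protein C receptor, at -1.73 ± 0.27 (SD, n = 5).

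The connective tissue lists differed in their share of higher genes, beside 27.8% higher and 20.1% lower over all genes. Fibroblast genes were higher for 17 of 20, with a median of 2.64, and those of smooth muscle and pericytes for 11 of 16, with a median of 1.62. Mgp, an inhibitor of calcification, varied little, at 6.62, 6.47, 6.73, 6.68 and 6.66, while Acta2, smooth muscle actin, was not called at 0.47 ± 0.58 (SD, n = 5). Of 29 collagen and basement membrane genes 14 were higher and 5 lower, with a median of 0.45. The highest were Lama4 at 4.80 ± 0.37, a laminin chain of vessel walls, and Col4a3 at 3.93 ± 0.49 (reference signal above background on 2 arrays), a collagen IV chain of alveolar basement membrane. The 3 lowest were Nid2 at -2.06 ± 0.36 and fibronectin, Fn1, at -2.03 ± 0.50, each with 4 lungs since a spot of control 3 was an outlier, and Col5a1 at -1.79 ± 0.10 (SD, n = 5). Of 19 elastic fibre genes 8 were higher and 3 lower, with Mfap4 at 5.98 ± 0.31 and Fbln2 at -3.20 ± 0.26. Under median centring the split was 9 higher and 11 lower for collagen and basement membrane, and 6 higher and 7 lower for elastic fibre.

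**Figure D2:**
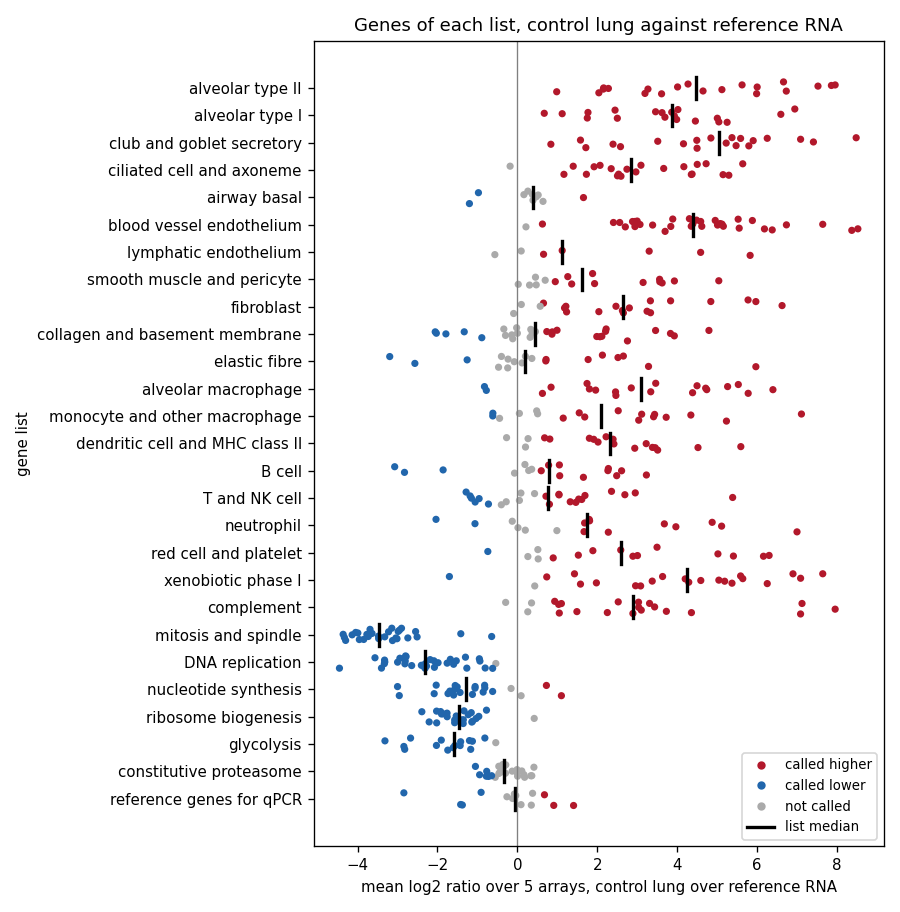
Mean log2 ratio over the 5 control arrays (x axis) for every tested gene of selected lists (y axis, 1 point per gene, red called higher, blue called lower, grey not called); black bars are list medians. Epithelial and endothelial lists lie almost wholly above 0, with medians of 2.86 to 5.04 for all but the airway basal and lymphatic lists, and the growth lists lie almost wholly below 0, down to a median of -3.47 for mitosis.

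Resident immune cells were also visible against the reference. Alveolar macrophage genes were higher for 18 of 20, with a median of 3.1, and Ear2, Plet1 and Ear1 led at 6.40 ± 0.38, 5.78 ± 0.16 and 5.54 ± 0.25 (SD, n = 5). Ear1 and Ear2 are close relatives, so their probes may share signal. The 2 lower genes were Bhlhe41 at -0.82 ± 0.24, a transcription factor, and the receptor kinase Axl at -0.78 ± 0.11. Genes of dendritic cells and of MHC class II, the molecules that present antigen to helper T cells, were higher for 15 of 18 and lower for 0, led by H2-Aa at 5.60 ± 0.50 (SD, n = 5; reference signal above background on 2 arrays) and H2-Ab1 at 4.53 ± 0.54 (SD, n = 4, with 1 outlier spot). MHC class I and immunoproteasome genes were higher for 10 of 13, with a smaller median of 0.78, and only 2 of these 13 were higher under median centring.

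Lymphocyte lists held both higher and lower genes, beside 27.8% higher and 20.1% lower over all genes. B cell genes were higher for 10 of 17 and lower for 3, with Jchain, the joining chain of secreted antibodies, at -3.07 ± 0.46 (SD, n = 5). T and NK cell genes were higher for 13 of 24 and lower for 6, but for 7 and 6 when signal was required in both channels, with a median of 0.07 in place of 0.76. Gzma, a granzyme of cytotoxic cells, stood at 5.39 ± 0.35 (SD, n = 5), the NK receptor subunit gene Klrd1, dim in every reference channel, was at least 6.85-fold higher (limma adjusted p = 1.41e-07, Benjamini-Hochberg), and the T cell receptor subunit gene Cd3d stood at 2.69 ± 0.35, while Thy1, Cd6 and Cd5 stood at -1.28 ± 0.18, -1.18 ± 0.40 and -1.15 ± 0.40 (SD, n = 5). Genes of red cells and platelets were higher for 11 of 15 and lower for 1, with the alpha globin gene Hba-a2 at 6.31 ± 0.65, although its near-identical copy Hba-a1 may share its signal. From such a ratio, fewer cells of a type in bulk tissue, less RNA per cell and more RNA in the reference cannot be told apart.

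Detoxifying enzymes and complement were prominent among the genes that were higher in lung. Of 22 genes of the first phase of foreign-compound metabolism 20 were called higher, 16 by at least 4-fold, with a median of 4.25, led by Cyp4b1, Cyp2f2 and the carboxylesterase gene Ces1d at 6.91 ± 0.54 (SD, n = 5). The 1 lower gene was Cyp1b1 at -1.70 ± 0.27. Complement genes were higher for 18 of 21 and lower for 0, with a median of 2.89. Glutathione and antioxidant genes were higher for 14 of 26 and lower for 5, beside 27.8% higher and 20.1% lower over all genes. Gpx3, a secreted glutathione peroxidase, stood at 4.85 ± 0.26 and the glutathione transferase gene Gsta3 at 4.50 ± 0.14, whereas Gsta1 and the quinone reductase gene Nqo1 stood at -2.15 ± 0.46 and -2.05 ± 0.34 (SD, n = 5). Under median centring this list held 8 higher and 9 lower genes.

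Genes of cell division were low in lung as a group. All 29 tested genes of mitosis and the spindle were called lower, 27 of them by at least 4-fold, with a list median of -3.47, against 3.17% of all genes lower by that much. Birc5, a survival factor of the chromosomal passenger complex, gave -4.48, -4.50, -3.82, -4.29 and -4.73, with a mean of -4.36 ± 0.34, and the kinetochore motor Cenpe gave -4.43, -4.57, -4.05, -4.33 and -4.27, with a mean of -4.33 ± 0.20 (SD, n = 5). Ccnb1, the B-type cyclin that drives entry into mitosis, stood at -4.30 ± 0.33. All 5 lungs were below 0 for these 3 genes. Cenpf at -0.64 ± 0.19 and Ttk at -1.42 ± 0.62 were the closest to 0, but neither had lung signal well above background on any array, and Ttk was at least 2.48-fold lower. Cenpf turned to 0.47 without scaling. The kinase gene Aurkb did not pass the filter on dim signals.

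DNA replication genes followed, with 32 of 33 called lower, 21 by at least 4-fold, and a median of -2.31. Rrm2, the regulated subunit of ribonucleotide reductase, stood at -4.46 ± 0.46, the origin licensing factor Cdt1 at -3.57 ± 0.20 and Gins2, a part of the replicative helicase, at -3.40 ± 0.18 (SD, n = 5). The gene not called was the primase subunit Prim2, at -0.54 ± 0.20. Nucleotide synthesis was lower for 18 of 22 genes, with a median of -1.28 and with the mitochondrial one-carbon enzymes Shmt2 and Mthfd2 at -3.00 ± 0.13 and -2.96 ± 0.25. The 2 higher genes were Impdh1 at 1.10 ± 0.40 and Mthfd1 at 0.73 ± 0.20 (SD, n = 5). Ribosome biogenesis was lower for 23 of 24, with a median of -1.47, led by the nucleolar proteins Nop58 at -2.39 ± 0.13 and Nolc1 at -2.21 ± 0.12.

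Glycolysis was lower in lung for 15 of 16 genes, with a median of -1.59. Slc2a1, a glucose transporter, gave -3.21, -3.49, -3.36, -3.13 and -3.39, with a mean of -3.32 ± 0.14, and Pgk1, phosphoglycerate kinase, stood at -2.84 ± 0.15 (SD, n = 5). Gapdh was lower as well, at -1.42 ± 0.19, and 6 of its 7 probes were called lower. The constitutive proteasome had the median nearest to 0 of these growth groups, with 6 of 24 lower, 0 higher and a median of -0.32. Its share of lower genes was near the 20.1% over all genes, although 23 of the 24 were lower under median centring.

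**Figure D3:**
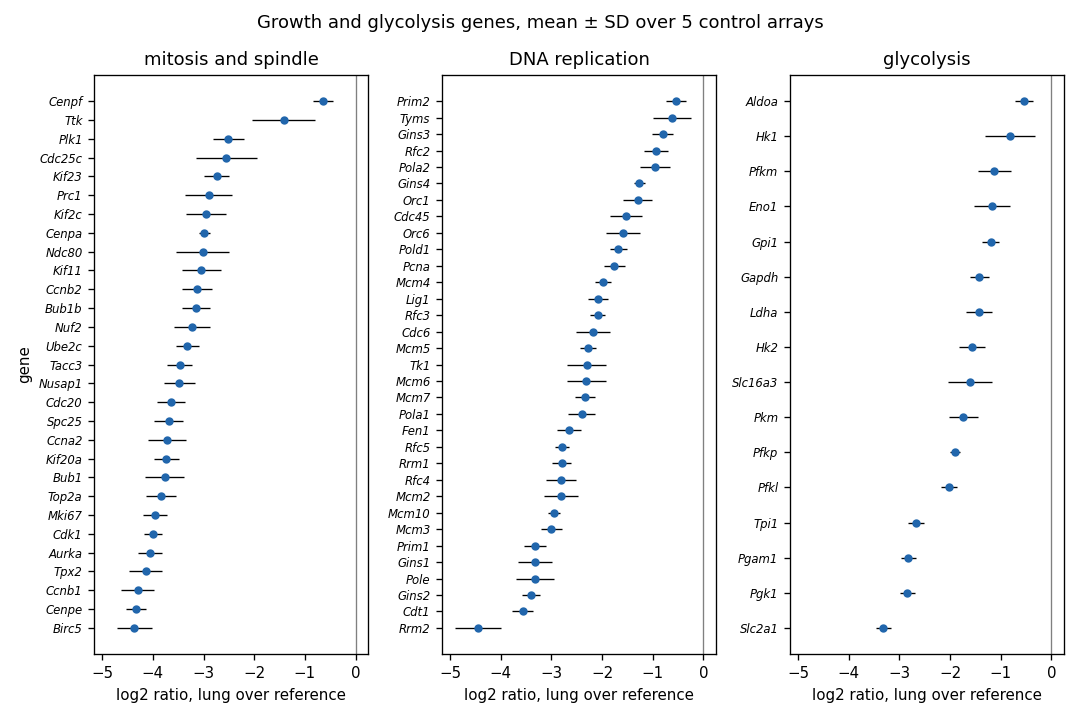
Mean log2 ratio ± SD over the 5 control arrays (x axis, error bars) for the tested genes (y axis) of mitosis and spindle, DNA replication and glycolysis. All points lie below 0, from -0.64 to -4.36 for mitosis, from -0.54 to -4.46 for replication and from -0.54 to -3.32 for glycolysis.

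Promoter windows of these genes were read from RefSeq (GRCm38.p6) as 250 bases before to 50 after the gene start, which were given for 614 of the 832 list genes tested. Of the 25 mitosis genes with a window, 18 (72.0%) held the letters TTTGAA on either strand, the cell cycle homology region that mitotic promoters are known for, and 19 (76.0%) held CCAAT. Over all 27025 genes with a window, 18.1% held TTTGAA and 37.9% held CCAAT. In the windows of replication genes TTTGAA was found in 4 of 26 and CCAAT in 16 of 26, and in those of type II genes each was found in 4 of 15. Outside the mitosis list, the share with CCAAT ran from 0.0%, as for airway basal genes, to 71.4% for circadian clock genes. A match describes the letters only, and not binding. The windows of Cdk1 and Mki67, a mitotic kinase and a proliferation antigen whose log2 ratios were -4.00 ± 0.18 (1 of 3 probes called lower) and -3.96 ± 0.23 (SD, n = 5), are shown to let the 2 motifs be seen, beside those of Sftpb and Cyp4b1 from the opposite end of the comparison. The Cdk1 window lies at chr10:69352863-69353162 on the minus strand, that of Mki67 at chr7:135716330-135716629 on the minus strand, that of Sftpb at chr6:72304360-72304659 on the plus strand and that of Cyp4b1 at chr4:115647672-115647971 on the minus strand. Capitals mark TTTGAA or CCAAT on either strand.
Cdk1: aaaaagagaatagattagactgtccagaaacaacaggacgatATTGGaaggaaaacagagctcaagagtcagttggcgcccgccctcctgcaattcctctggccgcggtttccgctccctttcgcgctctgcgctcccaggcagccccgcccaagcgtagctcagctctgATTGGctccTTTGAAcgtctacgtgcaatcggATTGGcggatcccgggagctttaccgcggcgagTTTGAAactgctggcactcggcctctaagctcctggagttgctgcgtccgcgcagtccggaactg
Mki67: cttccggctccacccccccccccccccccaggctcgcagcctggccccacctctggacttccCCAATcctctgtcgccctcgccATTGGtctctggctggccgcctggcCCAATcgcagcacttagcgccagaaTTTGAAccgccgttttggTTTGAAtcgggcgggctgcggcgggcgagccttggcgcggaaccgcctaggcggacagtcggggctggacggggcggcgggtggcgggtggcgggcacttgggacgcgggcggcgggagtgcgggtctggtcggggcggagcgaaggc
Sftpb: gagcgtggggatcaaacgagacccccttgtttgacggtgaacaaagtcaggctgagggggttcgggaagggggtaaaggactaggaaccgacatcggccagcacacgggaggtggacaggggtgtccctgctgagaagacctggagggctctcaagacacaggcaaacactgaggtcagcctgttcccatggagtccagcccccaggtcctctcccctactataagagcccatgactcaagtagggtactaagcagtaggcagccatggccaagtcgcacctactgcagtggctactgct
Cyp4b1: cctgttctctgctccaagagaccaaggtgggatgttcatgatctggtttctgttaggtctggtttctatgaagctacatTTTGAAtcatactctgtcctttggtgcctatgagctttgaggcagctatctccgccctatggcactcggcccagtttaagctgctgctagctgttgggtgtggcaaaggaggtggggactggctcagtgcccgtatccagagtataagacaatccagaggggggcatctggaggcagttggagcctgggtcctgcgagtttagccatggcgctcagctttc

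The Cdk1 and Mki67 windows each held TTTGAA in 2 places and CCAAT in 3, the Cyp4b1 window held TTTGAA in 1 place, and the Sftpb window held neither.

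Several of the lowest ratios came from genes outside the growth lists. Dlk1, an imprinted inhibitor of fat cell differentiation, gave -6.40, -6.38, -6.52, -6.53 and -5.70, with a mean of -6.31 ± 0.35 (SD, n = 5), or 79.1-fold less signal from lung (limma adjusted p = 2.32e-09). Cdkn2a, the locus of a pair of tumour suppressors that accumulates in cultured cells, gave -5.96, -5.70, -5.59, -5.84 and -5.41, with a mean of -5.70 ± 0.21, or 52.0-fold less (limma adjusted p = 1.26e-09). Hmga2, a chromatin protein of embryonic cells, stood at -4.90 ± 0.45, the interleukin 33 receptor gene Il1rl1 at -5.46 ± 0.59, the synaptotagmin gene Syt13 at -5.14 ± 0.28 and the homeobox gene Rhox5 at -5.05 ± 0.39. The histone genes H1f5 and H1f11-ps, whose relatives are similar enough to share signal, stood at -4.45 ± 0.40 and -4.60 ± 0.37 (SD, n = 5).

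The imprinted genes did not move as a group, since 5 of 11 were higher and 1, Dlk1, was lower. Cdkn1c, a cyclin-dependent kinase inhibitor, stood at 3.71 ± 0.23, Plagl1 at 2.64 ± 0.46 and the noncoding Meg3, which shares its imprinted region with Dlk1, at 2.22 ± 0.21 (SD, n = 5). Among embryonic and pluripotency genes 7 of 18 were lower and 1 was higher, beside 20.1% lower and 27.8% higher over all genes. Without scaling, 4 of them were lower and 11 higher. Besides Hmga2, the RNA-binding proteins Igf2bp3 and Igf2bp1 were low, Igf2bp3 by at least 5.48-fold (limma adjusted p = 3.8e-07) and Igf2bp1 at -1.99 ± 0.22 (SD, n = 5).

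Acute phase and chemokine genes of vehicle-treated lung lay on both sides of the reference. They were higher for 12 of 24 and lower for 9, 8 of these by at least 4-fold. Over all genes 27.8% were higher and 20.1% lower. The list median was 0.66, but -0.011 under median centring. Cxcl1, a neutrophil chemokine, gave -4.37, -5.19, -5.03, -4.53 and -4.32, with a mean of -4.69 ± 0.40 and lung signal above background on 3 arrays, and the monocyte chemokine Ccl2 gave -4.43, -3.90, -4.03, -4.48 and -3.54, with a mean of -4.08 ± 0.39. Ccl7 stood at -3.92 ± 0.41 (SD, n = 5). The chemokine Ccl6 at 6.33 ± 0.56, haptoglobin, Hp, at 6.01 ± 0.16 and Ccl21a at 4.59 ± 0.46 stood at the other end. Treated lungs ranged from -3.93 to -0.90 for Cxcl1 and from -3.14 to 0.36 for Ccl2. These ranges were not set against those of all genes. Immediate early genes, which respond to growth factors within minutes, were lower for 8 of 16 and higher for 4, with Myc at -3.52 ± 0.23 and Klf6 at 1.38 ± 0.54 (SD, n = 5). Under median centring 10 were lower and 0 higher, and without scaling 4 were lower and 6 higher.

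The genes commonly used to normalise PCR lay on both sides of 0 after loess scaling. Of 14 such genes, 3 were called higher and 4 lower, with a median of -0.06, whereas 0 were higher and 9 lower under median centring, with a median of -0.90. Actb stood at 1.41 ± 0.56 and B2m at 0.68 ± 0.27 (SD, n = 5), but they turned to -0.43 and -0.73 under median centring. Pgk1, Gapdh and Gusb were among the lower genes, with Gusb at -1.38 ± 0.19. The other 7 were not called, with values between -0.26 ± 0.20 for Tbp (SD, n = 5) and 0.38 ± 0.11 for Ppia (SD, n = 3, since spots of controls 3 and 5 were outliers). Among sex-linked genes, Xist stood at 0.75 ± 0.47 in these female mice, while Ddx3y on the Y chromosome was well above background in every reference channel and in no lung, and was at least 6.65-fold lower in lung (limma adjusted p = 7.18e-07).

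Lists of neighbouring and other tissues were read as well. A ratio to the reference also depends on what the cell lines express, so these counts cannot show that a tissue was present or absent. Of the thymus genes 2 were higher and 3 were lower, and the other 5 of 10, Rag1, Rag2, Ptcra, Foxn1 and Psmb11, did not pass the filter on dim signals. Of 12 skeletal muscle genes tested 2 were higher and 5 were lower, and the myosin heavy chains Myh1, Myh2 and Myh4 did not pass the filter. Of the liver genes 7 of 16 were higher and 1 was lower, with Hp and transferrin, Trf, both at 6.01 and albumin, Alb, at 0.89 ± 0.81. Airway cartilage genes were higher for 1 of 9 and lower for 3. Neuroendocrine and nerve genes were higher for 8 of 14 and lower for 0, genes of mast cells and basophils for 4 of 8 and 0, and those of monocytes and other macrophages for 12 of 18 and 2. When signal was required in both channels, 3 of the neuroendocrine and nerve genes were higher. Keratinocyte genes were higher for 1 of 9 and lower for 1, testis genes for 0 of 8 and 2, milk genes for 1 of 3 and 0, and clock genes for 5 of 16 and 2, beside 27.8% higher and 20.1% lower over all genes. Mesothelial genes, from the outer lining of the lung, were higher for 5 of 10 and lower for 3. Muscle genes of the heart, which in mice also ensheathe the pulmonary veins, and fat genes behaved differently, as follows.

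The lungs differed from one another in genes of heart muscle, fat, airway secretion and neutrophils. Of the 10 genes with the largest SD over the 5 lungs among those well above background in every lung, 8 encode proteins of heart or striated muscle, and the other 2, Reg3g and Bpifa1, are secreted by airway epithelium. Myh6, the alpha myosin heavy chain of heart, gave 0.35, 5.76, 5.97, 7.27 and 3.51 in controls 1 to 5, and Myl4, the atrial light chain, gave -0.53, 2.79, 4.28, 6.44 and 0.60. Control 4 was the highest and control 1 the lowest for both. The SD of Myl4 was 2.69 in the lung channel and 0.21 in the reference channel, while that of Myh6 was 4.30 and 1.64. Nppa, atrial natriuretic peptide, gave -0.09, 2.41, 0.57, 5.34 and 0.05 and did not pass the test (limma adjusted p = 0.0851).

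On each array the median of the heart muscle list was 0.01, 2.41, 2.82, 4.26 and 0.41 in controls 1 to 5, while treated lungs ranged from 0.03 to 3.70. As a group, 12 of its 17 tested genes were called higher and 1, Nppb at -0.78 ± 0.67 (SD, n = 5), lower. When signal was required in both channels, 8 of them were higher and 1 lower. Fat genes ran in the same order of lungs: the list median was 1.89, 2.94, 3.35, 4.68 and 2.25, and 10 of 12 genes were called higher. Of the fat genes, 9 were higher when signal was required in both channels. Cfd, the protease adipsin, gave 5.79, 7.20, 7.39, 8.66 and 6.43, and the fatty acid carrier Fabp4 gave 3.62, 3.82, 4.58, 6.95 and 3.52. Without control 4 the list medians were 1.38 for heart muscle, with 9 genes higher and 2 lower, and 2.58 for fat, with 10 higher.

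Secretory genes of the airway showed a similar order. Reg3g, a bactericidal lectin, gave 3.17, 6.37, 7.65, 8.41 and 1.80, and Bpifa1, a secreted protein of upper airways, gave 4.96, 6.91, 6.70, 8.27 and 2.70. Clca1, a goblet cell product chosen here after its values were seen, gave 0.33, 4.00, 7.80, 8.41 and 0.27. Control 4 was the highest and control 5 the lowest for all 3 genes. Clca1 signal was well above background on 4 arrays in lung and on 2 in the reference. The secretory list as a whole had medians of 4.34, 4.93, 5.36, 6.04 and 3.82, whereas the ciliated list kept between 2.87 and 3.01. Airway basal genes had medians of 0.15, -0.02, 0.05, 1.44 and -0.15, and Krt5, their keratin, gave 0.11, 0.13, 0.11, 3.01 and -0.15, high in control 4. How much of each lung's airway, vein or surrounding tissue was in the RNA was not tested.

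**Figure D4:**
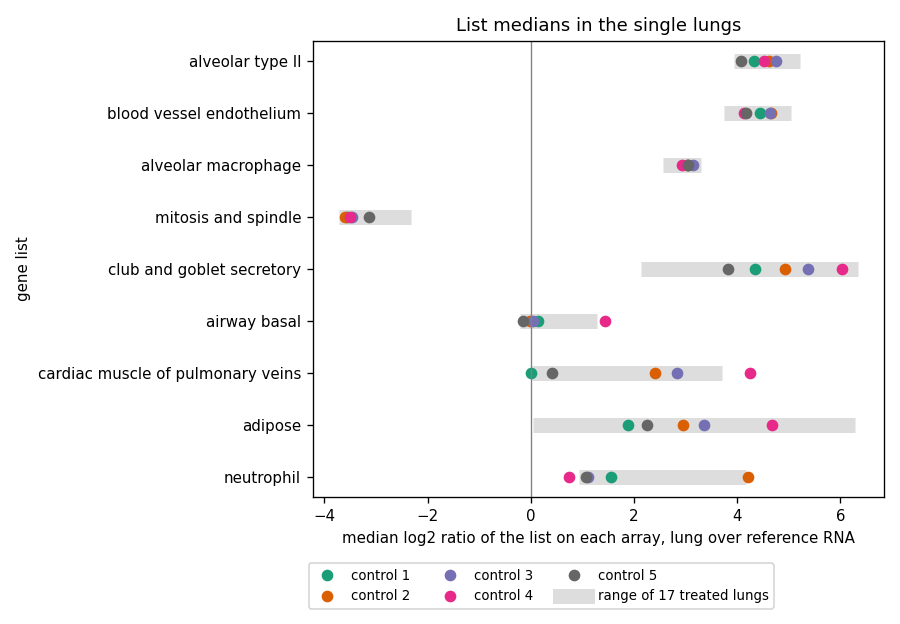
Median log2 ratio of selected gene lists (y axis) on each control array (x axis, coloured points), with the range over the 17 treated lungs as a grey bar. Type II (4.07 to 4.76), endothelial (4.13 to 4.66) and alveolar macrophage (2.93 to 3.14) lists stay close together, while heart muscle (0.01 to 4.26), fat (1.89 to 4.68) and neutrophil lists (0.75 to 4.21) spread widely.

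Neutrophil genes followed another order. Their list median was 1.55, 4.21, 1.11, 0.75 and 1.07, highest in control 2, while treated lungs ranged from 0.94 to 4.17. S100a9, the calcium-binding protein that fills neutrophils, gave 6.62, 8.57, 6.64, 6.79 and 6.40, and Clec4d, a lectin receptor, gave -2.23, 0.07, -2.86, -2.28 and -2.89. The collagenase Mmp8, chosen after its values were seen and dim in every reference channel, gave 1.33, 4.76, 1.09, 0.59 and 0.67. Control 2 was the highest lung for all 3 genes. Ltf, lactoferrin, which airway glands also secrete, gave 4.45, 5.06, 6.00, 6.86 and 3.22 and was highest in control 4. Of the 16 neutrophil genes tested 10 were higher and 2 lower, and without control 2 the counts were again 10 and 2, with a median of 1.21 in place of 1.74. When signal was required in both channels, 7 were higher and 2 lower. Mpo, Elane and Prtn3, made by neutrophil precursors in marrow, stood at -0.13 ± 0.54, 0.02 ± 0.21 and 0.20 ± 0.20 (SD, n = 5) and were not called.

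**Figure D5:**
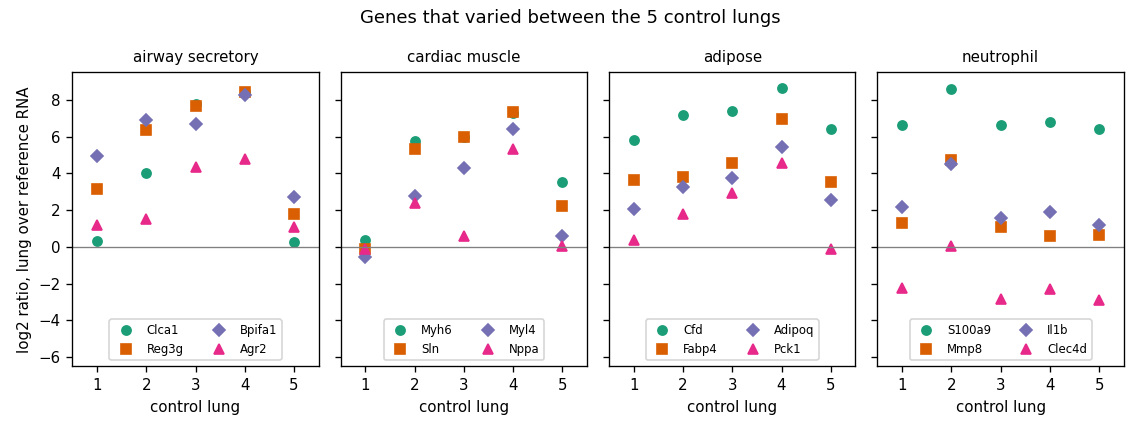
Log2 ratio (y axis) in each of the 5 control lungs (x axis) for 4 genes each of airway secretion, heart muscle, fat and neutrophils, some of them picked after their values were seen. The first 3 groups peak in control 4 and are low in controls 1 and 5, and the neutrophil genes peak in control 2.

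Some other lists varied less between lungs. The list median ran from 4.07 to 4.76 for type II cells, from 4.13 to 4.66 for blood vessel endothelium and from 2.93 to 3.14 for alveolar macrophages, and from -3.60 to -3.13 for mitosis. Treated lungs ranged from 3.93 to 5.22, from 3.75 to 5.04, from 2.57 to 3.29 and from -3.72 to -2.33 for the same 4 lists. Not all other lists were this even. Control medians ran from 1.48 to 2.76 for monocytes and other macrophages and from 0.21 to 1.67 for mast cells and basophils.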

How the data were processed

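Labelling started from 200 ng of total RNA per array. The deposited scanner files held, per the file headers, spot intensity values on a linear scale from Agilent Feature Extraction, together with background-subtracted, dye-normalised intensity and its log10 ratio of Cy5 to Cy3. A deposited matrix of log2 values held a single normalised ratio per probe, and how the authors scaled it is not given in the sources used here. Its values correlated with those used here at 0.90 to 1.00 across probes, with slopes of 0.66 in control 5 and 0.92 in control 3.

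Median signals without background subtraction were used, as in the study. Spots that the scanner software marked as outliers were dropped, log2 ratios were scaled within each array by loess (span 0.3, control spots at weight 0), and replicate spots were reduced to their median. The mean ratio was tested against 0 in limma 3.58.1 (R 4.3.3), two-sided, with Benjamini-Hochberg adjustment. A single gene tested by exact sign changes of 5 arrays could not go below p = 0.0625. The reference counts as 1 sample, so its own spread is left out of each p-value, and replicates are separate mice. Scripts were tested on simulated data in which few probes differed, equally many in each direction. Such data cannot tell how loess behaves where as many probes differ as here.

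Of 55681 probes, 26413 were named by RefSeq accession and 262 through symbols in the study's tables, and 29006 stayed unnamed. Where both sources named a probe, 4236 of 4244 names were the same. Of 894 genes in 50 lists, 16 are not analysed here, and values of some listed genes are not reported here. The members and lists were chosen with earlier results of these data known. Genes were named by rule: the 10 highest and 10 lowest ratios measured in both channels with a usable spot on all 5 arrays, the largest bounds, the 3 highest and 3 lowest of a list, the 10 largest SDs, PCR reference and sex-linked genes, and Hopx, Nkx2-1, Foxa2, Foxf1, Tbx4 and Tbx5. Others that are named with values, such as Cdk1, Mki67, Sftpb, Acta2, Alb, Krt5, Mpo, Ltf, Fabp4 and the genes plotted for variation, were chosen after their values were seen. Alternatives covered the background correction, the scaling, the filter on dim probes, the fold threshold, the arrays in the fit, the choice of probe and each array left out.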

Additional observations from a re-analysis of the deposited data

Results flagged for a closer look

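In 192 sets of 5 values, 1 for each gene named with values and 1 for each gene list tested, 10 genes and 4 lists had 1 lung set apart from the others by Dixon's test. Chance gives this in about 1 of 20 sets that were not picked by their values, and since some genes here were named for their spread or after their values were seen, the count cannot be read against that rate. Control 4 stood apart in 5 of the 14. Its Krt5 ratio was 3.01 and its Cyp2f2 ratio was 8.13, both the highest, its Gapdh ratio of -1.75 was the lowest, and its medians were the highest for the airway basal list at 1.44 and the mesothelium list at 1.65.

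Control 2 stood apart in 4, all of them neutrophil values and all the highest: S100a9 at 8.57, Clec4d at 0.07, Mmp8 at 4.76 and the neutrophil list median at 4.21. Control 5 was the highest for Dlk1 at -5.70, for Plagl1 at 3.44 and for the mitosis list median at -3.13. Control 1 was the lowest for Clic5 at 6.02 and for Gins2 at -3.71.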

How the results depend on the processing

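Leaving out each control lung in turn kept the probe counts and the counts over the gene lists within 1.5 times of those reported. Counts moved further under other scalings. Median centring gave 10836 probes lower, 1950 of them at least 4-fold. No scaling gave 27765 higher and 2355 lower, 4156 and 523 of them at 4-fold, and 135 list genes lower in place of 209. The scanner software's ratio gave 10292 lower, with 3568 higher and 2557 lower at 4-fold. A 2-fold threshold gave 5058 higher and 3640 lower. Ratios that turned under median centring were Acot7 at -0.0304, Actb at -0.43, B2m at -0.73, Car4 at -0.23 and Ppia at -1.14. Of the 6 list medians that turned there, 2 had lain at least 1.5-fold from 0, those of the glutathione and antioxidant list at -0.37 and the acute phase and chemokine list at -0.011. Without scaling Bhlhe41 turned to 0.15, Cenpf to 0.47, Mpo to 0.93, Nppb to 0.26 and Rfx3 to 0.88. Of the 6 list medians that turned, 1 had lain at least 1.5-fold from 0, that of thymus, now 0.23. The cause was not tested. Quantile scaling between arrays leaves ratios as they are by construction. No paired analysis was possible because there is 1 group of lungs, whose ratios to the reference are already taken within each spot, and no second group shares its replicate numbers in this comparison. On the control arrays lung signal had a median of 1.52 to 2.05 times the local background, and reference signal 1.32 to 3.38 times. These values describe whole arrays and set no bound on the ratio of a single gene. Ratios of genes near background in either channel need caution.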
